A study of Mus musculus with 4 samples.

Results

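Amino acid and neurotransmitter transporter genes were examined in female mouse neural stem cells, cultured progenitors of brain neurons and glia, with and without the chromatin protein Smchd1. The genes were taken by symbol, as every entry of the count table named Slc1a, Slc3a, Slc6a, Slc7a, Slc36a, Slc38a or Slc43a followed by a number. These 7 solute carrier families gave 59 genes of 25965 entries. The cells came from E14.5 embryos of a C57BL/6, 129 and Castaneus (Cast) mixed background. Their maternal X was of 129 origin with an Xist deltaA allele, and their paternal X was of Cast origin. Control cells were Smchd1 del/fl, with 1 deleted and 1 conditional allele, and were not transduced. Deleted cells were Smchd1 del/del, made from the same lines with the Cre and puromycin retrovirus MSCV-Cre-puro. Puromycin was added 24 h after transduction and the cells were harvested on day 7, so deletion, transduction and selection cannot be told apart. There were 4 libraries of total RNA, 1 control and 1 deleted library from each of 2 lines, called A and B here. The design text of the series mentions 3 lines for each genotype, and further lines were not analysed here.

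Solute carriers move amino acids and related molecules across membranes. The Slc1a family takes up glutamate and neutral amino acids, and its glial members clear glutamate from around synapses. The Slc6a family couples sodium and chloride to the uptake of GABA, glycine, monoamines, taurine and creatine. Slc38a carriers move glutamine and small neutral amino acids, and the Slc3a heavy chains pair with Slc7a light chains to exchange larger amino acids and cystine. Slc36a and Slc43a carriers move small and branched-chain amino acids. In the brain, astrocytes use Slc1a2 and Slc1a3 for glutamate, Slc6a11 for GABA, and Slc38a3 to release glutamine to neurons.

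Library totals ran from 29873400 to 34018500 counts. Smchd1 itself (chromosome 17, 71344489 to 71475343, mm10) stood at 93.5 and 102 CPM (counts scaled to 1000000 per library) in control cells A and B, against 23.4 and 26.6 after deletion. Its log2 fold change was −1.96 (SE 0.07, edgeR adjusted p = 0.0194), and the count covers the whole gene, not only the deleted part. Neural stem cell markers summed to 7014 to 7729 CPM in controls and 6014 to 7247 in deleted cells. Of the marker lists of other cell types, 2 of 8 microglia markers (Cx3cr1 and Tmem119), 2 of 8 of mesenchyme (Dcn and Lum) and 1 of 6 of endothelium (Cdh5) were at 0 in all 4 libraries. Others had counts, with 251 to 304 per library for Csf1r, 120 to 266 for Cd68, 691 to 875 for Foxc1 and 41 to 68 for Kdr. The microglia list summed to 15.3 to 17.6 CPM in controls and 14.6 to 19.2 in deleted cells, mesenchyme to 22.2 to 30.9 and 28.3 to 29.3, and endothelium to 2.89 to 3.32 and 2.88 to 5.50. Of these lists only endothelial Flt1 was called by edgeR, at 13 and 5 counts in A and B of the controls and 68 and 23 of the deleted cells (log2 2.22, edgeR adjusted p = 0.0415). DESeq2 did not call Flt1. Interferon-stimulated genes set deleted A apart, with a sum of 516 CPM over 15 genes against 83.6 to 118 in controls and 98.7 in deleted B.

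Of the 59 transporter genes, 38 passed the filter on low counts. After Smchd1 deletion 8 of them rose and 3 fell, in an edgeR quasi-likelihood fit over 14860 genes with line as a block and an adjusted p of at most 0.05. Over all tested genes the same fit called 3.71% higher and 1.89% lower, against 21.1% and 7.89% of the tested transporters. The genes that rose included carriers of glutamate (Slc1a3), GABA (Slc6a11), glycine (Slc6a9), creatine (Slc6a8), glutamine (Slc38a3) and arginine (Slc7a2), with Slc38a10 beside them. Those that fell were Slc6a6 for taurine, the vesicular carrier gene Slc6a17 and the glutamine carrier gene Slc38a1. All 11 moved the same way in both lines, as did 30 of all 38. The fit with line as a block favours genes whose lines agree, so this is not separate support. In all 11 the 2 groups' CPM values did not overlap. Among all 38, groups did not overlap with deleted cells higher for 14 genes (36.8%, against 22.9% of all tested genes) and with deleted cells lower for 9 (23.7%, against 22.8%), so the second share is near the background.

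The median log2 fold change of the 38 was 0.14, and that of all tested genes 0.01. The number of calls rests on the term for line. Without it edgeR called 0 transporters and 0% of all genes, and at an unadjusted p under 0.05 there were 7 transporters higher and 2 lower, beside 6.86% and 4.83% of all genes. DESeq2 with line as a block called 9 higher and 4 lower, where it called 5.2% and 2.87% of all genes. In simulated data the edgeR fit with line as a block called 41 unchanged genes, a larger share of its calls than its threshold. The fit without the term for line called 0 unchanged genes. Of 100 simulated 2-fold changes the blocked fit recovered 92 and the fit without the term 3. Of 100 simulated 4-fold changes they recovered 100 and 56. The 0 calls without the term thus say little about changes near 2-fold. With line as a block, each p-value rests on how closely the changes within these 2 lines match, with information on spread shared across genes. A difference between lines that is the same in both groups is removed and does not enter it. Without the term for line, the spread of the 2 cultures within a group does enter. Either way the p-values speak only for these 2 cultures per group. In bulk RNA, fewer cells of a type and less RNA per cell cannot be told apart.

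**Figure D1:**
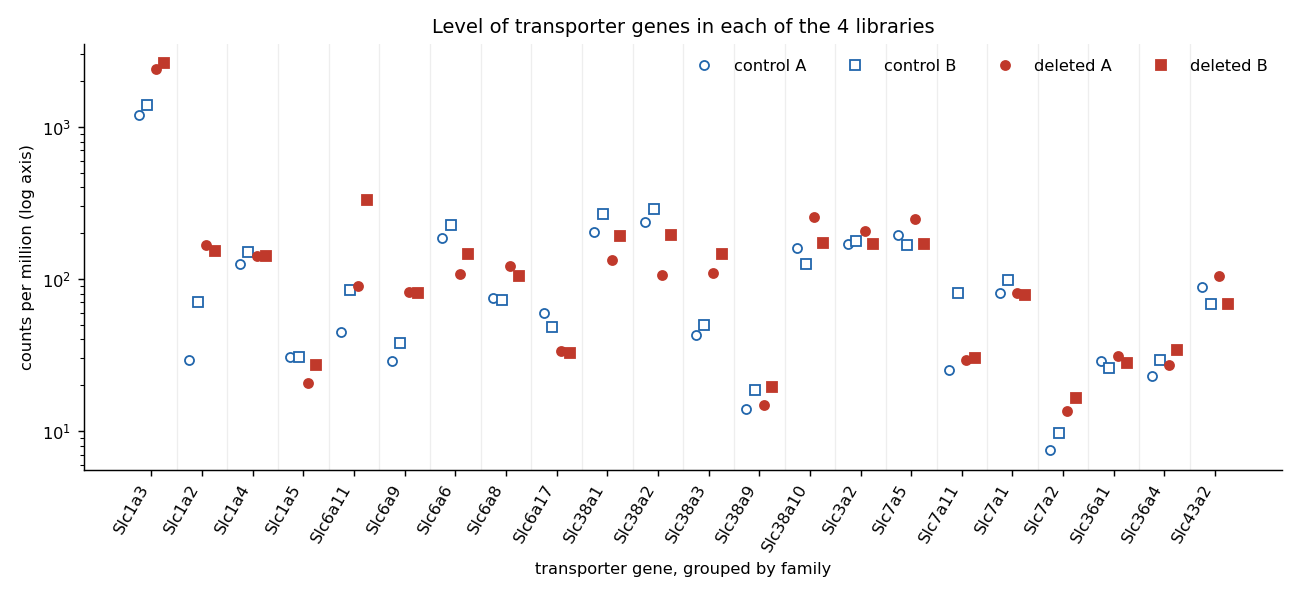
Level of 22 transporter genes in CPM (log axis) in each library, with open blue symbols for controls, filled red symbols for deleted cells, circles for line A and squares for line B. Slc1a3 is the highest, at 1199 and 1383 in control cells, against 2405 and 2612 after deletion, and Slc6a6, Slc38a1 and Slc38a2 lie lower in both deleted libraries.

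Slc1a3, the glial glutamate and aspartate transporter gene (chromosome 15, 8634124 to 8710764, minus strand), had the highest level of the 59 per length, with a mean of 223 CPM per kb of exon over the 4 libraries. It stood at 1199 and 1383 CPM in control cells A and B, against 2405 and 2612 after deletion. Both deleted libraries were thus above both controls, and the rise was 1.95-fold (log2 0.96, SE 0.08, edgeR adjusted p = 0.0197). The value was close in the 2 lines, with a log2 fold change of 1.00 in A and 0.92 in B. All transporters together took 0.356% and 0.412% of counts in control cells and 0.532% and 0.621% after deletion. Slc1a3 alone made up 33.5% and 33.7% of that share in controls and 45.1% and 42.3% in deleted cells.

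Slc1a2, the other main astrocytic glutamate transporter gene, had the largest positive fold change of the tested transporters but was not called. Its level was 29.2 and 70.0 CPM in control cells, against 166 and 152 after deletion. The deleted libraries were both above the controls, which differed from each other by more than the deleted ones did. The log2 fold change was 1.79 (SE 0.33, edgeR adjusted p = 0.0533), made of 2.51 in line A and 1.12 in line B. DESeq2 with the same block called it. The remaining members of the family were not called by edgeR. The neuronal glutamate transporter genes Slc1a1 and Slc1a6 had log2 fold changes of 0.24 and 0.71 at low levels, with 181 to 272 and 15 to 34 counts per library. Exons of Slc1a1 share 31.9% of their positions with 4430402I18Rik on the opposite strand, and strand use is not given in the sources used here, so reads of the 2 genes cannot be told apart.

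The neutral amino acid exchangers of the family did not pass the test. Slc1a4, a carrier of serine, alanine and cysteine, stood at 124 and 150 CPM in control cells, against 141 and 142 after deletion, and the groups overlapped (log2 0.05, SE 0.09, edgeR adjusted p = 0.738). Slc1a5, a glutamine exchanger of dividing cells, had 30.6 CPM in both controls, against 20.8 and 27.3 after deletion. Its groups did not overlap, at a log2 fold change of −0.36 (SE 0.13, edgeR adjusted p = 0.142).

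Slc6a11, a GABA transporter gene of astrocytes (chromosome 6, 114131241 to 114249886), rose. Its level was 44.9 and 84.4 CPM in control cells, against 89.5 and 332 after deletion. Deleted A was only just above control B, and the log2 fold change was 1.97 in line B and 1.00 in line A, a difference that was not tested. Over both lines the log2 fold change of Slc6a11 was 1.5 (SE 0.24, edgeR adjusted p = 0.0422). Leaving out 1 library at a time, without a term for line, took it from 0.45 to 2.36. Slc6a13, a GABA and taurine transporter gene of meninges and blood vessels, had 12 and 13 counts in control cells, against 5 and 7 after deletion (log2 −1.08, SE 0.49, edgeR adjusted p = 0.215).

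Slc6a9, the glial glycine transporter gene (chromosome 4, 117834506 to 117875198), rose as well. It stood at 29.0 and 37.9 CPM in control cells, against 81.8 and 80.8 after deletion, so the deleted libraries lay close together and far above both controls. The rise was 2.45-fold (log2 1.29, SE 0.12, edgeR adjusted p = 0.0205), with 1.5 in line A and 1.09 in line B. Exons of Slc6a9 share 27.8% of their positions with Ccdc24 and 9.94% with Gm17114, both on the opposite strand, and whether their reads were told apart is not given. The neuronal glycine transporter gene Slc6a5 had 0 to 2 counts.

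The other Slc6a genes with counts went both ways. Slc6a8, the creatine transporter gene on the X chromosome (73673150 to 73682502), stood at 75.1 and 73.1 CPM in control cells, against 122 and 105 after deletion, a rise of 1.53-fold (log2 0.61, SE 0.08, edgeR adjusted p = 0.0298). Slc6a6, the taurine transporter gene (chromosome 6, 91684067 to 91759063), fell from 187 and 226 CPM to 108 and 147. Both deleted libraries were below both controls (log2 −0.71, SE 0.08, edgeR adjusted p = 0.0231). Slc6a17, which encodes a neutral amino acid carrier of synaptic vesicles (chromosome 3, 107467543 to 107518018, minus strand), fell from 59.4 and 48.6 CPM to 33.7 and 32.6 (log2 −0.70, SE 0.09, edgeR adjusted p = 0.0323). Slc6a15, a carrier of branched-chain amino acids and proline, was at 2.39 CPM in control A and between 6.42 and 7.04 in the other 3 libraries. Its log2 fold change was 0.61 (SE 0.39, edgeR adjusted p = 0.347), with 1.43 in line A and −0.10 in line B.

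Within the Slc38a family the glutamine carriers moved in opposite directions. Slc38a3, which astrocytes use to release glutamine (chromosome 9, 107650639 to 107668968, minus strand), had the lowest adjusted p of the 38 genes. Its level was 43 and 49.6 CPM in control cells, against 109 and 145 after deletion. The rise was 2.72-fold (log2 1.44, SE 0.08, edgeR adjusted p = 0.0194), at 1.34 in line A and 1.55 in line B. Slc38a1, a sodium-coupled glutamine importer gene (chromosome 15, 96571418 to 96642913, minus strand), stood at 204 and 267 CPM in control cells, against 133 and 192 after deletion. The groups did not overlap, and the log2 fold change was −0.54 (SE 0.07, edgeR adjusted p = 0.0323).

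Slc38a2, a related importer gene known to be induced by amino acid shortage, lies 44.5 kb from Slc38a1 on the same strand. It was at 237 and 288 CPM in control cells, against 106 and 196 after deletion, below both controls in each case. At a log2 fold change of −0.85 (SE 0.15) its edgeR adjusted p was 0.0502, just outside the threshold, and DESeq2 with the same block called it. Slc38a10 (chromosome 11, 120103960 to 120151346, minus strand) rose from 160 and 125 CPM to 255 and 173, a log2 fold change of 0.58 (SE 0.08, edgeR adjusted p = 0.0343). Control A and deleted B lay close to each other, and the rise was seen within each line (0.67 in A, 0.47 in B). Leaving out 1 library at a time, without a term for line, took Slc38a10 from 0.28 to 0.82, and Slc38a1 from −0.84 to −0.30. Slc38a7 and Slc38a9, both lysosomal, and Slc38a6 were not called, with log2 fold changes of −0.20, 0.08 and 0.05.

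**Figure D2:**
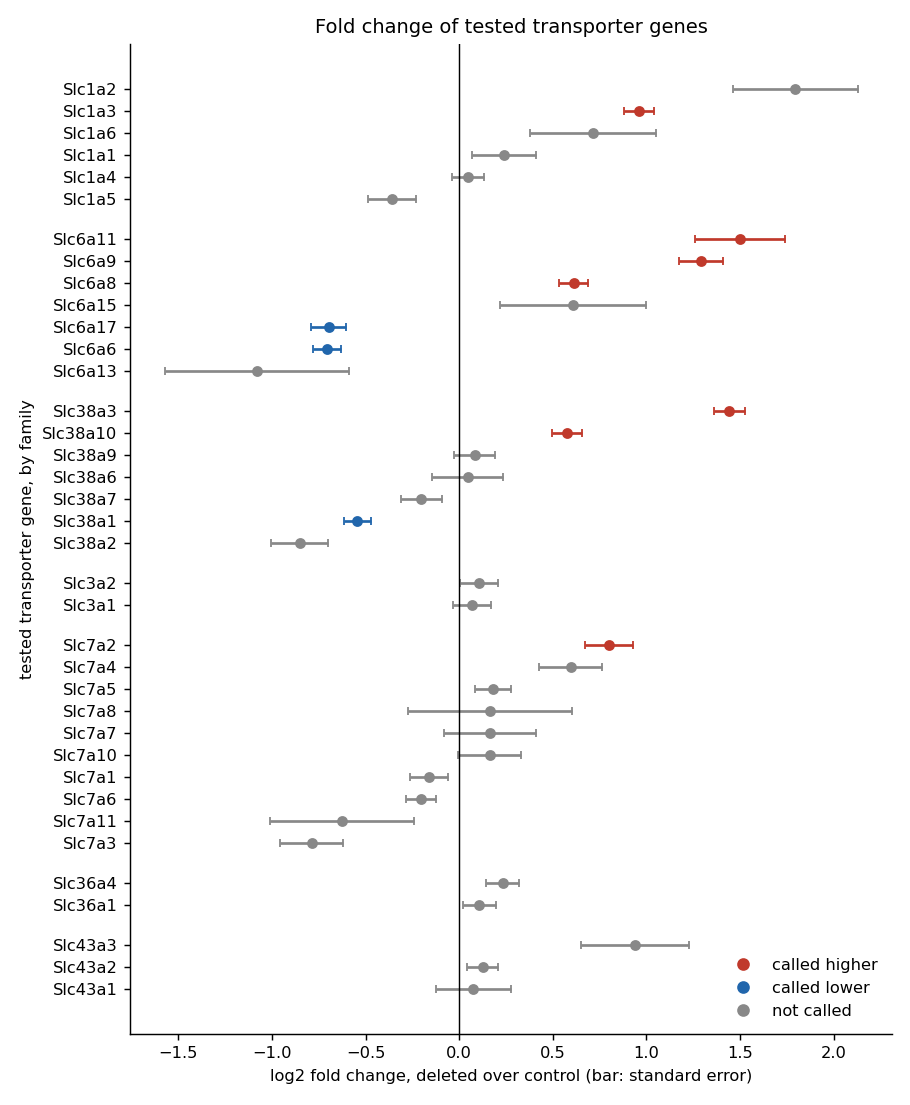
Log2 fold change of deleted over control cells for 37 of the 38 tested transporter genes, by family, with bars for the standard error of the edgeR fit with line as a block. Red marks 7 genes called higher, blue the 3 called lower and grey the rest, and the Slc6a and Slc38a families hold calls in both directions.

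The tested heavy and light chain genes of amino acid exchangers did not pass the test. Slc3a2, the shared heavy chain gene, stood at 169 and 177 CPM in control cells, against 206 and 169 after deletion (log2 0.11, SE 0.10, edgeR adjusted p = 0.525). Slc7a5, the light chain gene for leucine and other large neutral amino acids, was at 195 and 166 CPM against 246 and 168 (log2 0.18, SE 0.10, edgeR adjusted p = 0.274). For both genes deleted A was the highest library and the groups overlapped. Per length, Slc7a5 and Slc3a2 had close means of 52.3 and 51.1 CPM per kb of exon. In the Slc3a family, neither gene was called by edgeR or by DESeq2, and 0 had an unadjusted p under 0.05, where 17.2% of all genes were higher and 13.6% lower. Slc3a1, the heavy chain gene of cystine transport in kidney, had a log2 fold change of 0.07, but 26.5% of its exon positions are shared with Prepl on the opposite strand.

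Slc7a11, the light chain gene that imports cystine in exchange for glutamate and so feeds glutathione synthesis, was not called. Control A held 25.3 CPM and control B 80.4, while deleted A held 29.2 and deleted B 30.3. Control B thus stood alone, and the other 3 libraries were close together. Line A gave a log2 fold change of 0.20 and line B of −1.41, and both together −0.63 (SE 0.38, edgeR adjusted p = 0.325).

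The promoter of Slc7a11 is known as a target of the stress factor ATF4, and its sequence is shown with those of other members that hold a motif searched for. Promoters are those of RefSeq (GRCm38.p6), from 250 bases before to 50 after a start site, and 41 of the 59 genes were matched, with 62 promoters. Motifs were searched on both strands and are written in capitals. They were TGATGNAA, the core bound by ATF4 with a C/EBP partner, TGACNNNGC, the core of the antioxidant element bound by NRF2, and CACGTG, the E-box, which reads the same on both strands. Slc7a11 holds 2 ATF4 cores, one on each strand, in chr3:50443564-50443863 (minus strand), and Slc1a4 holds 1, at its start site, in chr11:20332664-20332963 (minus strand). Slc38a2, in chr15:96699679-96699978 (minus strand), and Slc6a11, in chr6:114130991-114131290 (plus strand), each hold 1 NRF2 core.
Slc7a11: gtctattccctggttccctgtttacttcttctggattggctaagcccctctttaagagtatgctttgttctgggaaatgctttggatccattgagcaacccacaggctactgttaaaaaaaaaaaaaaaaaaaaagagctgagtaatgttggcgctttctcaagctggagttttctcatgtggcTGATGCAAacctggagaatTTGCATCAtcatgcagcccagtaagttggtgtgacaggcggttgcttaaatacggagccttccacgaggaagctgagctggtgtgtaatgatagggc
Slc1a4: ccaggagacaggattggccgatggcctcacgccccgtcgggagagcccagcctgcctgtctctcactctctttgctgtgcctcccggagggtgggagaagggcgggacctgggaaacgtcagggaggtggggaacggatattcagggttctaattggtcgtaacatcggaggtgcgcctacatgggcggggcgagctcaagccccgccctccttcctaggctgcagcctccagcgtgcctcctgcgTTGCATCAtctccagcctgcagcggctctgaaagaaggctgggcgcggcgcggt
Slc38a2: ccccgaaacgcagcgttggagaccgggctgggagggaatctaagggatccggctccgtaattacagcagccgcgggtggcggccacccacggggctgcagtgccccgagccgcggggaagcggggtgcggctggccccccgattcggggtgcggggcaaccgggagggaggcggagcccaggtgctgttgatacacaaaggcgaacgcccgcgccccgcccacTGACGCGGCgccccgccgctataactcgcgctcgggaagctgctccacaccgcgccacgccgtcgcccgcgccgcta
Slc6a11: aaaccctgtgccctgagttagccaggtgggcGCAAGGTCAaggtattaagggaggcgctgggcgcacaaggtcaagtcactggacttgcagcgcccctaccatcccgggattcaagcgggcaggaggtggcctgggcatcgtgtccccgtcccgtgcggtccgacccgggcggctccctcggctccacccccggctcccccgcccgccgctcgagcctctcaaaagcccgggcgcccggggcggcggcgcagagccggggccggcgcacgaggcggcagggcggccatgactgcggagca

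The ATF4 core was in 4 of the 62 transporter promoters (6.45%) and in 3.97% of all 32851 promoters of the same length. These 4 promoters belong to only 3 genes, since a gene can have several promoters. For the NRF2 core the shares were 16.1% (10 promoters of 8 genes) and 12.4%, and for the E-box 12.9% (8 promoters of 8 genes) and 7.15%. The 3 genes with an ATF4 core were Slc1a4, Slc7a11 and Slc7a7, none of which was called. Genes with an NRF2 core included Slc6a9 and Slc6a11, which rose, and Slc38a2, Slc7a1, Slc7a6, Slc36a1, Slc43a1 and Slc6a13, which were not called. A match describes letters and not binding.

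Among carriers of arginine and other cationic amino acids, Slc7a2 rose (chromosome 8, 40862396 to 40922308). It stood at 7.47 and 9.77 CPM in control cells, against 13.5 and 16.4 after deletion, with no overlap (log2 0.80, SE 0.13, edgeR adjusted p = 0.0432). Of its exon positions 6.95% are shared with Gm26584 on the opposite strand, and of those of Slc38a10 5.72% with Gm11769. The more abundant arginine carrier gene Slc7a1 was at 80.2 and 97.9 CPM in control cells, against 80.7 and 78.0 after deletion, and was not called (log2 −0.16, SE 0.10, edgeR adjusted p = 0.334). Slc7a3, the X-linked carrier of the same group, was lower in both lines but not called, at 6.97 and 9.62 against 3.76 and 5.94 CPM (log2 −0.79, SE 0.17, edgeR adjusted p = 0.0633). Slc7a4 was higher in both lines and not called (log2 0.60, edgeR adjusted p = 0.0978). Of its exon positions 13.6% are shared with P2rx6 on the opposite strand. The other light chain genes Slc7a6, Slc7a7, Slc7a8 and Slc7a10 had log2 fold changes from −0.21 to 0.16. Opposite-strand genes share 17.9% of the exon positions of Slc7a10 (Lrp3) and 8.17% of those of Slc7a7 (Oxa1l).

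Lysosomal and branched-chain carriers did not pass the test. Slc36a1, which exports small amino acids from lysosomes with protons, was at 29.0 and 25.8 CPM in control cells, against 31.0 and 28.0 after deletion (log2 0.11, SE 0.09, edgeR adjusted p = 0.457). Slc36a4 was at 23.1 and 29.2 against 27.4 and 34 (log2 0.23, SE 0.09, edgeR adjusted p = 0.161). Slc38a9, the lysosomal arginine sensor gene of the growth regulator mTORC1, was at 13.9 and 18.7 against 14.9 and 19.5 (log2 0.08, SE 0.11, edgeR adjusted p = 0.649). In each of these genes the groups overlapped, and lines differed by more than groups. Slc43a2, a carrier of branched-chain amino acids, was at 88.9 and 68.0 CPM in control cells, against 105 and 68.2 after deletion (log2 0.12, SE 0.08, edgeR adjusted p = 0.368). Of Slc43a2 exon positions 9.18% are shared with Gm45606 on the opposite strand. Of the 2 tested Slc36a and 3 tested Slc43a genes edgeR and DESeq2 called 0. At an unadjusted p under 0.05, where 17.2% of all genes were higher, 1 in each family was higher. These were Slc36a4 and Slc43a3, a purine base carrier gene with 17 to 86 counts (log2 0.94, SE 0.29).

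The 21 genes that did not pass the filter had at most 16 counts in any library, and 11 of them had 0 in all 4. They include the monoamine transporter genes for noradrenaline (Slc6a2, 0 to 2 counts), dopamine (Slc6a3, 2 to 16) and serotonin (Slc6a4, 0 to 5). The proline transporter gene Slc6a7, the betaine carrier gene Slc6a12, the kidney and gut carrier genes Slc6a18 and Slc7a9, and Slc36a3 were at 0 in every library. The 6 further genes at 0 were Slc1a7, Slc6a14, Slc7a12, Slc7a13, Slc7a15 and Slc38a8. Slc6a5, Slc6a19, Slc7a14, Slc36a2, Slc38a4, Slc38a5 and Slc38a11 had a highest count between 2 and 10.

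**Figure D3:**
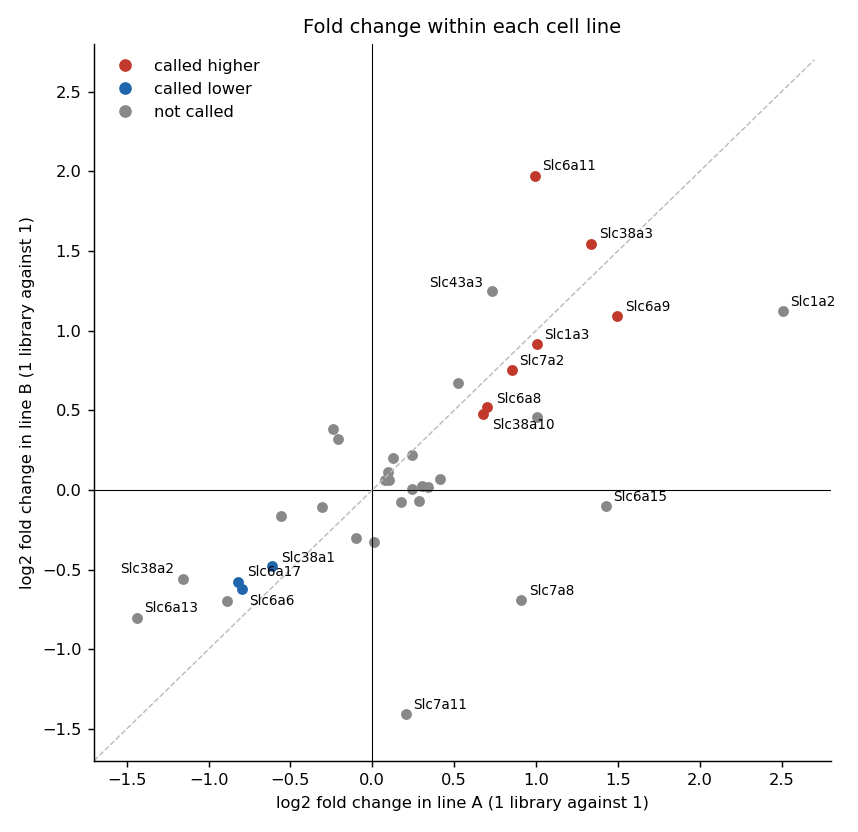
Log2 fold change within line A (horizontal axis) and line B (vertical axis) for 37 of the 38 tested transporter genes, each from 1 deleted against 1 control library, with the dashed line marking equal values. The 10 called genes shown lie in the quadrants where both lines move the same way, which the fit with line as a block favours. Slc7a11 (0.20 and −1.41) and Slc7a8 (0.91 and −0.69) moved in opposite directions.

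The X chromosome holds 4 of the 59 genes. With the Xist deltaA allele on the 129 X, the Cast X is the one that can be silenced, and Smchd1 is known for its part in that silencing. Slc6a8 rose, with log2 fold changes of 0.70 in line A and 0.52 in line B. Slc7a3 was lower in each line and not called. Slc38a5 had 2 counts in deleted B and 0 in the other libraries, and Slc6a14 had 0 in all 4. Reads split by parental genome were not used here, so the X chromosome from which these transcripts came is not given.

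Glial and synaptic genes around these carriers were counted from lists. Beside calls of the main edgeR fit stand the same 3.71% higher and 1.89% lower of all genes. For every list, DESeq2 called 5.2% and 2.87% of all genes, and edgeR without the filter on low counts 6.04% and 3.59%. Among enzymes of glutamate, glutamine and GABA, 2 of 13 tested rose and 0 fell, while DESeq2 and edgeR without the filter on low counts each called 5 higher. The 2 were the GABA breakdown enzyme gene Aldh5a1 (log2 0.98, SE 0.10) and the glutamate dehydrogenase gene Glud1 (0.53, SE 0.07). Of 9 tested vesicular and mitochondrial carriers 1 rose, the mitochondrial glutamate carrier gene Slc25a18 (0.77, SE 0.07). The vesicular glutamate carrier genes were low and not called, with 0 to 2 counts for Slc17a6, 3 to 16 for Slc17a7 and 13 to 97 for Slc17a8. The vesicular GABA carrier gene Slc32a1 had 0 to 1. Receptor genes rose in both lists, with 5 of 12 tested glutamate and glycine receptor genes and 5 of 11 tested GABA receptor genes higher and 0 lower. They included the metabotropic receptor gene Grm5 (0.91, SE 0.07), Grin3a (0.75, SE 0.07) and Gabrg1 (0.83, SE 0.10).

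For serine, glycine and creatine 1 of 13 enzyme genes rose and 1 fell, namely Gatm, the first enzyme of creatine synthesis (log2 0.97, SE 0.09), and Psat1 of serine synthesis (−0.50, SE 0.08). DESeq2 called 2 of these genes higher and edgeR without the filter 3. Among 18 tested genes of the ATF4 amino acid response 1 fell, Sesn2 (−0.39, SE 0.07), 0 rose, and the median was −0.22, while DESeq2 called 2 lower and edgeR without the filter 4. At an unadjusted p under 0.05 in the main fit, 9 were lower and 1 higher, beside 13.6% and 17.2% of all genes. Among 14 tested glutathione and NRF2 genes 1 fell, Gpx1 (−0.47, SE 0.08), 0 rose, and the median was −0.25, while DESeq2 called 2 lower and 1 higher and edgeR without the filter 2 lower. At the unadjusted threshold 5 of these were lower and 1 higher. None of 19 tested genes of amino acid sensing by mTORC1 was called by edgeR or DESeq2, with 0 at an unadjusted p under 0.05. Of 5 other tested carriers of the plasma membrane edgeR and DESeq2 called 0. At an unadjusted p under 0.05, 1 was higher, beside 17.2% of all genes.

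Several astrocyte markers rose beside the glial transporters. Of 10 such markers, which exclude the transporters themselves, 9 were tested, and 5 rose and 0 fell, beside 3.71% and 1.89% of all genes. Aqp4, the astrocyte water channel gene, went from 5.82 and 7.75 CPM to 27.9 and 26.6 (log2 2.01, SE 0.16), Gfap rose by a log2 of 1.38 and Gja1 by 0.64. In the same list Cd44 (log2 −0.53) and Sox9 (−0.24) had negative values in both lines and were not called by edgeR, with an unadjusted p under 0.05 for each. DESeq2 called 6 markers higher and 1 lower, beside 5.2% and 2.87% of all genes. The 10 markers summed to 661 to 694 CPM in controls and to 881 to 903 in deleted cells, and Gjb6 had 0 counts in 3 libraries and 3 in deleted A. Neuron markers summed to 129 to 223 CPM in controls and 85.1 to 122 in deleted cells, and without the synaptic vesicle gene Syt1, which fell (log2 −1.47), to 52.2 to 57.5 and 59.2 to 60.7. The median of the 8 neuron markers was −0.07, with 4 positive. Oligodendrocyte lineage markers summed to 961 to 1076 and 910 to 945. The part of these marker changes, or of the interferon-stimulated genes, in the transporter results was not tested.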

How the data were processed

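The authors deposited 1 table of gene counts (whole numbers, not normalized) with columns named by group and line. The submitters' processing notes name the build mm10 and, without their roles, bcl2fastq, edgeR and TopHat2 2.0.12. The counter and its use of strand are not stated there. Another 8 columns, with reads split by parental genome, are not used: columns could be tied to a group but not to 1 sample, and 1 column per library, the total, was kept. These columns had been examined before they were left out, and the planned test of the Cast to 129 ratio is not reported.

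Per the labels' protocols each line was divided into a transduced and an untransduced part, so libraries with the same line number are parts of 1 line, and their deviations from the group means correlated at r = 0.72 over 14860 genes. Counts of all 25965 entries were fitted in edgeR 4.0.16 (R 4.3.3) with TMM factors, filterByExpr, line and genotype as terms and the quasi-likelihood test, with Benjamini-Hochberg adjustment over all tested genes and a threshold of 0.05. Standard errors are the log2 fold change over the root of F. CPM uses TMM library sizes, and exon lengths are unions from GENCODE M21, matched for all 59 genes. Alternatives were DESeq2 1.42.0, RLE factors, library size alone, no filter, no term for line and each library left out. Tested on simulated data, the blocked fit made false calls at a larger share than its threshold. Values are given by library for called members, the highest member of each family per length and a list by role, and for up to 3 called genes of each other list. Members and lists were chosen with earlier results of these data known. Protein identities were not computed. Some genes are not reported here by name and are left out of the figures.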

Additional observations from a re-analysis of the deposited data

Results flagged for a closer look

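Opposite directions in the 2 lines, beyond counting error in each, were seen for 5 tested transporters. The difference between lines was not tested, since each line has 1 library per group. For Slc7a11 the log2 fold change in line A exceeded that in line B by 1.61, at 0.20 against −1.41. For Slc7a8, a light chain gene with 36 to 106 counts, the gap was 1.60, at 0.91 against −0.69. Slc43a1 had −0.24 against 0.39, with line A minus line B at −0.63. Slc3a2 had 0.28 against −0.07, a gap of 0.35, and Slc1a4 had 0.18 against −0.08, a gap of 0.25.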

How the results depend on the processing

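The calls rest on the replicate block, the term for line. In simulated data the fit without it recovered 3 of 100 2-fold changes, against 92 with it. Without a replicate block, edgeR called 0 transporters higher and 0 lower, and 0% of all genes in either direction, and the same counts of 0 were found with each library left out in turn (lowest and highest 0), where the lone library of a group is assumed to vary like the others. Without a filter on low counts 9 transporters were higher and 5 lower, with 6.04% and 3.59% of all genes, and DESeq2 with the block called 2.87% of all genes lower. Slc1a2 and Slc38a2 were also called by DESeq2, with RLE factors and without the filter, and Slc7a3 without the filter. Scaling by library size alone called the same 11 genes. Leaving out 1 library, without a term for line, no called gene changed sign. Among genes that were not called the value changed sign for Slc1a4 (−0.091 to 0.18), Slc38a9 (−0.15 to 0.31), Slc3a2 (−0.040 to 0.23), Slc43a2 (−0.20 to 0.40), Slc7a5 (−0.10 to 0.43) and Slc7a11 (−1.44 without control A to 0.23 without control B). The cause was not tested. The Cast to 129 ratio and the Cast share of X-linked genes are not reported under any setting, since the columns split by genome are not used.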

Other observations

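Some receptor and glial genes beside the transporters differed between lines as well as groups. Gabrb1, a GABA receptor subunit gene that was called higher (log2 3.63, SE 0.37), had 14 and 2 counts in controls A and B and 222 and 13 in deleted A and B. S100b, an astrocyte marker called higher (log2 2.64, SE 0.28), had 61 and 29 counts in controls and 555 and 119 after deletion. Grm3, a glial glutamate receptor gene called higher (log2 1.08, SE 0.12), was higher in line B than in line A in both groups, at 208 and 898 counts in controls and 435 and 1986 after deletion. Of the 14 tested interferon-stimulated genes edgeR called 0, and 9 had an unadjusted p under 0.05, all higher, beside 17.2% of all genes higher at that threshold. DESeq2 called 2 of them higher and edgeR without the filter on low counts 7, beside 5.2% and 6.04% of all genes. Ifit1 had 996 counts in deleted A and 17 to 25 in the other 3 libraries.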
